A study of Mus musculus with 12 samples.

Results

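The 39 genes described here are textbook markers of brain cells other than microglia: 9 of astrocytes, 10 of the oligodendrocyte lineage, 8 of neurons, 8 of fibroblasts or mural cells and 4 of endothelium. They were taken by symbol from the 52636 genes counted, with GENCODE M21 names on the GRCm38 build, and all 39 were found. The list names genes and uses no measured value, but it was chosen with earlier results of these data known. It serves to see how much RNA of other cells came along with the microglia, and whether that changed with treatment.

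Microglia, which serve as the brain's own macrophages, were prepared from wild-type C57BL/6 pups aged 1 to 2 days. The dissociated brain cells grew together in flasks for 10 to 13 days, after which microglia were shaken loose and replated at a density of 50000 per well, with 2.5 ng of the growth factor CSF1 in each. Within 2 to 4 days of replating they received vehicle, 5 µg of NfL (the light chain of neurofilament, a filament subunit of nerve cells that leaks out when axons are damaged) in full length, or 5 µg of its coiled-coil part, for 24 h. Each group held 4 RNA libraries, 1 from each of 4 labelled batches, and all 12 libraries came from the same strain, genotype and culture procedure.

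In such cultures astrocytes form a layer that sticks to the flask, microglia lie loosely on top and detach when the flask is shaken, and oligodendrocyte precursors also sit on the astrocyte layer. A preparation can therefore carry over RNA of other cells, which marker genes report. Few markers belong to 1 cell type alone: Slc1a3, Mbp, Cnp, Flt1 and Pecam1 can also be transcribed by microglia or other myeloid cells. In RNA from a whole well, fewer cells of a type, less RNA per cell and more RNA from microglia cannot be told apart. Levels here are shares of a library's counts.

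Libraries held 20162427 to 31048044 counts, and the 39 markers together held 0.0313% to 0.0591% of them. Levels are CPM, counts scaled to a fixed library size, with TMM, a factor that evens out differences in library composition. Libraries of the same batch deviated together from their group means, as described with the processing, so each comparison is given from a fit without batch and from a fit with batch as a term. A gene is called where edgeR's quasi-likelihood test gave an adjusted p under 0.05 over all 14687 genes tested. Batches 2 and 4 were closer to each other than any other pair of batches within each group. The labels do not say whether batches were separate cultures, so the p-values measure only the spread between these samples.

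In sum, the markers stood far below the genes of microglia. Their summed level ran from 328 to 556 CPM over the 12 libraries, against 14377 to 17955 CPM for 12 genes of microglia and macrophages. Without the 5 genes that myeloid cells can also transcribe, the sum of the markers ran from 61.5 to 270 CPM. Compared per kilobase of exon in vehicle, the highest marker was Cnp at 30.1 CPM per kb. That was below each of the 12 microglial and macrophage genes, which ranged from 33.3 for Ptprc, the leukocyte surface phosphatase CD45, to 2445 for C1qa, a complement subunit. After Cnp, Mbp was at 12.2, the neuronal tubulin Tubb3 at 6.45 and the transcription factor Olig1 at 5.25 CPM per kb.

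Of the 39 markers, 35 had enough counts to be tested. Cldn5, the tight junction claudin of brain endothelium, had no count in any of the 12 libraries, which allows at most 3 counts, or 0.0966 to 0.149 CPM, per library. Mog, a protein of the outer myelin sheath, had 0 to 5 counts. The fibroblast proteoglycans Dcn and Lum had 0 to 12 and 0 to 6 counts. These 4 markers were thus at or near 0, while others of the same classes were detected: Mag had 93 to 279 counts, Mbp 1391 to 3755, Cdh5 17 to 96 and Col1a1 0 to 47.

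**Figure D1:**
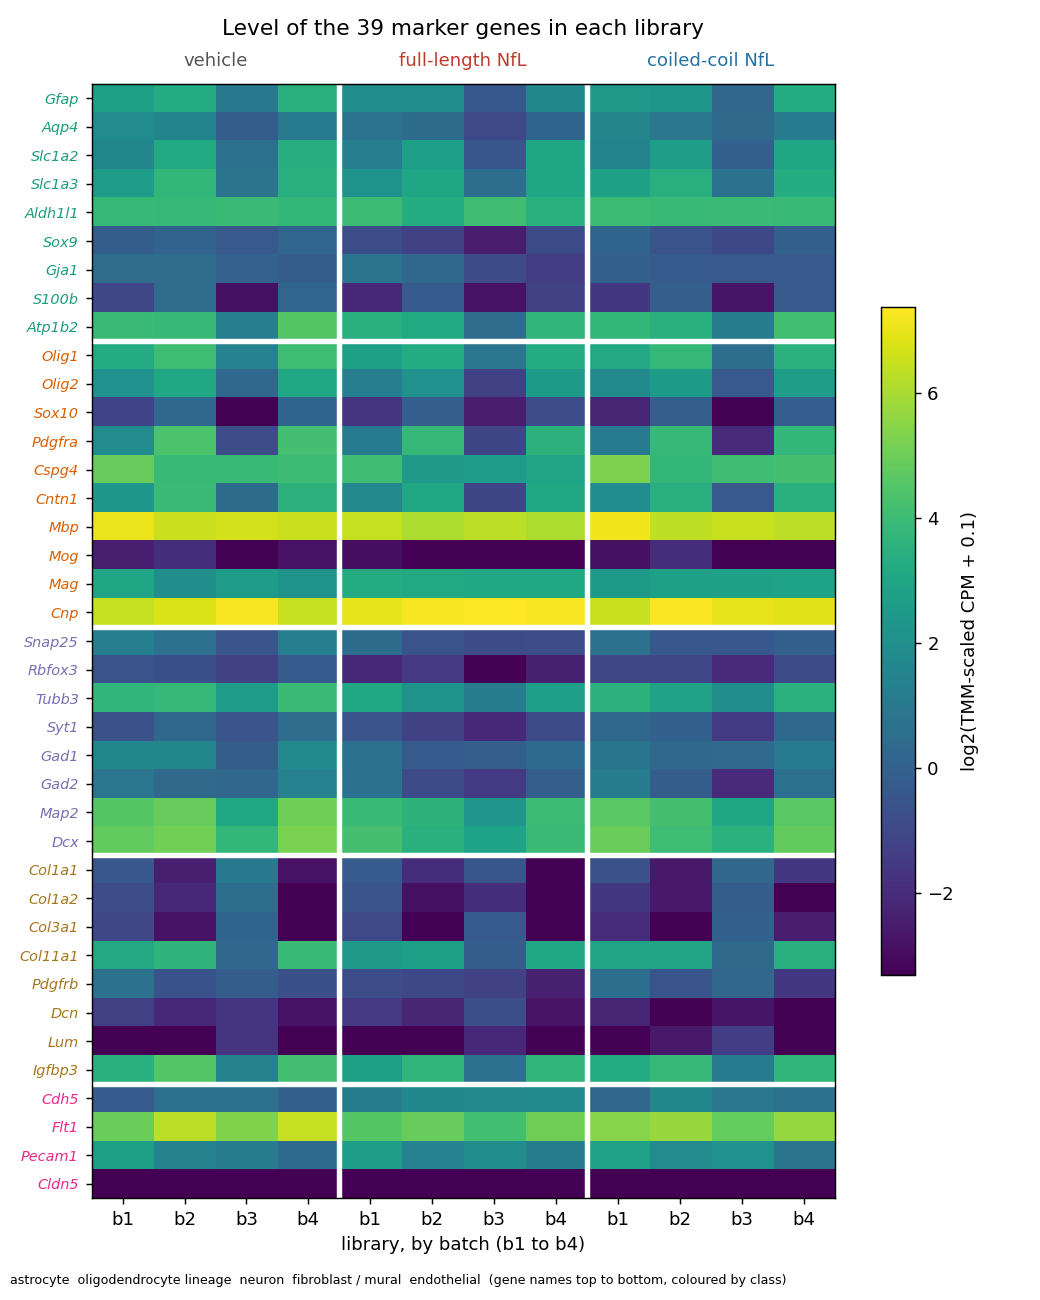
Level of each of the 39 markers (rows, grouped by class from astrocyte at the top to endothelial at the bottom) in each of the 12 libraries (columns, by group and batch), as log2(TMM-scaled CPM + 0.1). Dark cells in the columns of batch 3 show the low astrocyte, oligodendrocyte precursor and neuronal markers there, and Cldn5 is dark throughout.

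Many markers differed widely between batches of the same group. In batch 3 the level was the lowest of the 4 batches within each of the 3 groups for 19 of the 35 tested markers, against 11.1% of all genes tested. These 19 included 7 of 9 astrocyte, 5 of 9 oligodendrocyte lineage and 5 of 8 neuronal markers. A further order cut across the classes: 10 markers, among them Slc1a2, Olig1, Olig2, Pdgfra, Igfbp3 and Flt1, were higher in batches 2 and 4 than in batches 1 and 3 in each group, against 3.23% of all genes. The fibrillar collagens Col1a1, Col1a2 and Col3a1 had the reverse order, with batches 1 and 3 on top, as did Aldh1l1 and Mbp (5 of 35, against 5.79% of all genes).

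With full-length NfL, most of the markers were lower than with vehicle in the same batch, and neuronal markers had the largest median difference of the 5 classes. Of the 35 tested, 31 had a log2 fold change below 0, against 51.9% of all genes, and 22 were lower in each of the 4 batches, against 28.1%. The median log2 fold change was −0.81, beside −0.02 over all genes tested. In the fit without batch, 4 markers fell, Sox9, Rbfox3, Gad1 and Flt1, beside 10.9% of all genes, and 2 rose, Mag and Cdh5, beside 14.0%. The share lower was close to that of all genes, and the share higher was below it. With batch as a term, 25 markers fell, beside 22.4% of all genes, and 3 rose, beside 21.4%. Of these 25, 17 stayed called with each library or batch left out and with batches 2 and 4 summed, alternatives to the fit with batch that were chosen after the data were seen. The 8 that lost the call in at least 1 of them were Slc1a2, Slc1a3, S100b, Gad1, Gad2, Snap25, Syt1 and Pdgfrb. For Syt1 this happened without vehicle or full-length replicate 2, 3 or 4, and for S100b and Gad2 without vehicle or full-length replicate 4. Slc1a2 lost it without vehicle replicate 2, and Slc1a3, Gad1, Snap25 and Pdgfrb when a whole batch was left out. Of the 3 that rose, Cdh5 stayed called in all of these, Mag lost the call without replicate 2 and Cnp without replicate 4 in all groups. How many of all genes kept their call under the same alternatives was not counted. Without the 5 genes that myeloid cells can also transcribe, 22 of 30 fell and 2 rose with batch as a term. Whether microglia transcribe any of these 30 was not tested.

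The levels of full-length and vehicle libraries overlapped for most of the called markers. All 4 full-length libraries lay below all 4 vehicle libraries for Sox9, Mbp, Rbfox3 and Pdgfrb, where 11.4% of all genes did so. Of these markers, Rbfox3 passed the low-count filter through vehicle and coiled-coil libraries alone. The full-length libraries lay above for Mag and Cdh5, where 14.5% of all genes did so. Which direction the calls of all genes took depended on the scaling: 56.4% were higher with TMM, 45.8% with upper-quartile scaling and 42.4% with library totals. The number of markers below 0 was 31 of 35 under each. The share of counts from mitochondrial genes was lower with full-length NfL in each batch, at 0.210% to 0.372% against 0.400% to 0.518% with vehicle. Its part in these differences was not tested.

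**Figure D2:**
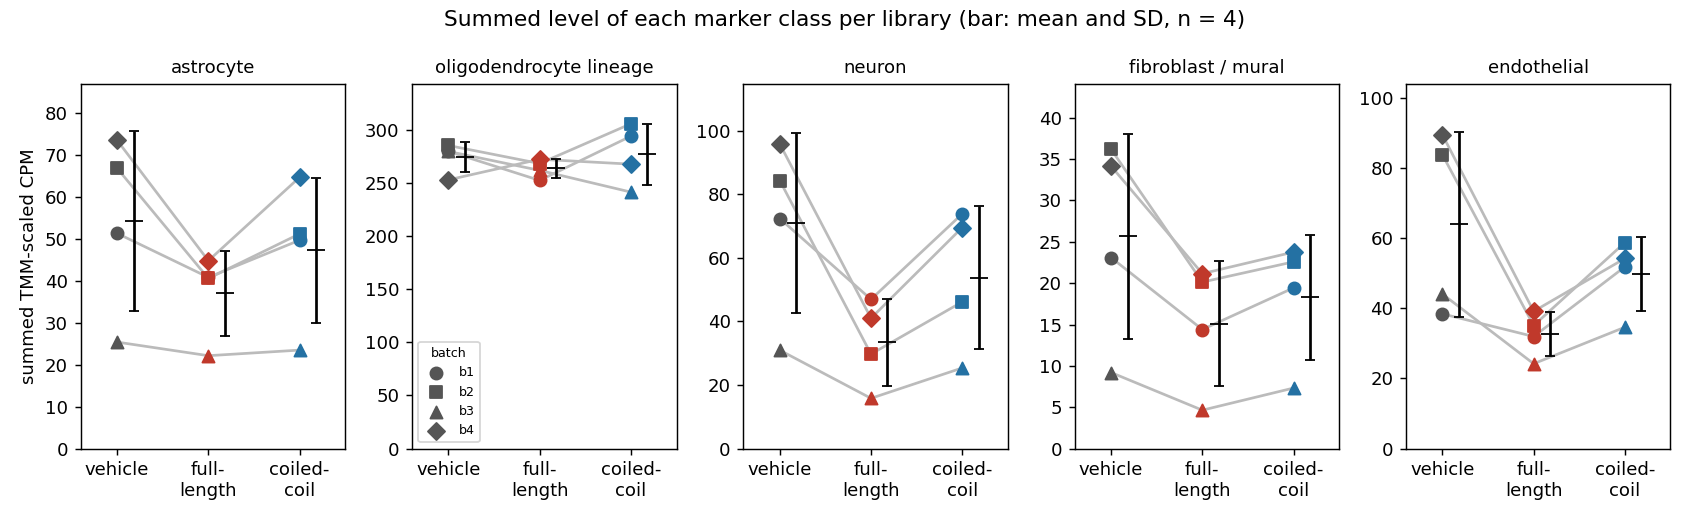
Summed TMM-scaled CPM of each marker class (y axes, from 0) in the 12 libraries, with grey lines joining the libraries of a batch and bars showing mean and SD of 4 libraries. The full-length point lies below the vehicle point of its batch in all 4 batches in every panel but that of the oligodendrocyte lineage, where Mbp and Cnp make up most of the sum. Flt1 makes up most of the endothelial sum, and Aldh1l1 most of the astrocyte sum in batch 3.

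Summed by class, neuronal markers were at 72.4, 84.4, 31.0 and 95.9 CPM in the vehicle libraries of batches 1 to 4 and at 47.0, 29.7, 15.8 and 41.0 CPM with full-length NfL. The ratio within a batch was 0.649, 0.353, 0.511 and 0.428. Astrocyte markers summed to 51.3, 66.8, 25.4 and 73.5 CPM in vehicle and 40.8, 40.5, 22.1 and 44.8 CPM with full-length NfL. Their ratios were 0.607 to 0.872. Of the batch 3 sums, Aldh1l1 made up 15.6 of 25.4 CPM in vehicle and 17.2 of 22.1 CPM with full-length NfL. It did not follow the other astrocyte markers, as given below. For the oligodendrocyte lineage the sum was 274 ± 14.5 CPM (SD, n = 4) in vehicle and 263 ± 8.68 CPM with full-length NfL, a difference smaller than the spread between libraries. Without Mbp and Cnp it was 60.8 ± 25.0 and 39.9 ± 16.0 CPM, and the ratio within each batch was 0.622 to 0.677. The endothelial sum was below vehicle in each batch, and Flt1 made up most of it. Without Flt1 and Pecam1, which myeloid cells can also transcribe, it was 1.17 ± 0.429 CPM in vehicle and 2.98 ± 0.506 CPM with full-length NfL, all of it from Cdh5. That rise is of 1 gene and not of the class. Cldn5 had no count in any library, nor had 3 of the 12 further endothelial genes listed below. The 3 further ones that were tested had log2 fold changes below 0.

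Of the 9 astrocyte markers, none rose with full-length NfL. Sox9 fell in the fit without batch and 7 fell with batch as a term, and the median log2 fold change without batch was −0.73. In what follows, 4 values in a row are batches 1, 2, 3 and 4. Gfap, the intermediate filament of reactive astrocytes, was at 6.68, 9.59, 1.93 and 11.0 CPM in vehicle, 3.74, 3.94, 0.670 and 3.13 CPM in full-length and 5.50, 4.94, 1.05 and 9.71 CPM in coiled-coil libraries. Within each batch it was lowest with full-length NfL and highest in vehicle. The log2 fold change to vehicle was −1.34 (SE 0.66), with adjusted p = 0.154 without batch and 0.000578 with batch as a term by edgeR.

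Aqp4, the water channel of astrocyte endfeet, was at 3.43, 2.72, 0.803 and 2.03 CPM in vehicle, 1.60, 1.29, 0.419 and 0.996 CPM in full-length and 2.79, 1.79, 1.20 and 2.03 CPM in coiled-coil libraries. Its fall with full-length NfL was of like size in all 4 batches, at −1.04 on the log2 scale with batch as a term (SE 0.21, adjusted p = 0.00233 by edgeR; 0.113 without batch). Sox9 (chr11:112782224-112787760), a transcription factor of astrocytes and their precursors, was at 0.781, 0.963, 0.683 and 1.04 CPM in vehicle, 0.475, 0.321, 0.0837 and 0.427 CPM in full-length and 0.993, 0.585, 0.401 and 0.883 CPM in coiled-coil libraries. These are 2 to 26 counts per library. The full-length libraries all lay below the vehicle libraries, with a log2 fold change of −1.38 (SE 0.43) and adjusted p = 0.0352 by edgeR. The call was lost when vehicle replicate 1, 2 or 4, full-length replicate 2, 3 or 4, or replicate 2 or 4 of all groups was left out, with adjusted p from 0.0527 to 0.183.

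Slc1a2 and Slc1a3 encode the glutamate transporters that clear the transmitter from the synapse. Slc1a2 was at 2.86, 9.17, 1.45 and 10.0 CPM in vehicle, 2.38, 6.51, 0.628 and 7.87 CPM in full-length and 2.71, 6.24, 0.903 and 7.99 CPM in coiled-coil libraries. Slc1a3 was at 5.77, 13.4, 1.65 and 10.8 CPM in vehicle, 4.41, 8.04, 1.34 and 7.97 CPM in full-length and 6.87, 10.5, 1.50 and 9.79 CPM in coiled-coil libraries. Batches 2 and 4 stood well above batches 1 and 3 for both genes. The log2 fold changes were −0.49 and −0.50 with batch as a term (adjusted p = 0.0178 and 0.00796 by edgeR; 0.705 and 0.582 without batch).

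Atp1b2, a sodium pump subunit on astrocytes, was at 15.8, 14.4, 2.33 and 23.3 CPM in vehicle, 10.5, 8.92, 1.30 and 12.9 CPM in full-length and 13.4, 11.0, 2.16 and 17.6 CPM in coiled-coil libraries. It was lower with full-length NfL in each batch, with a log2 fold change of −0.72 (SE 0.10) and adjusted p = 0.000223 with batch as a term by edgeR (0.482 without). S100b, a calcium-binding protein, was at 0.391, 1.30, 0.0402 and 1.04 CPM in vehicle, 0.136, 0.764, 0.0419 and 0.332 CPM in full-length and 0.229, 0.845, 0.0502 and 0.691 CPM in coiled-coil libraries, from 1 to 31 counts. It fell with batch as a term (adjusted p = 0.0154 by edgeR), although its full-length library in batch 3 was level with vehicle at 1 count each.

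Aldh1l1, a folate enzyme widely used as a general astrocyte marker, did not follow the others. It was at 14.3, 13.9, 15.6 and 13.6 CPM in vehicle, 15.9, 9.64, 17.2 and 10.9 CPM in full-length and 16.3, 14.5, 15.5 and 15.3 CPM in coiled-coil libraries, and no library left the range of 9.64 to 17.2 CPM, while Gfap ranged from 0.670 to 11.0 CPM. Its log2 fold change with full-length NfL was −0.10, with a 95% interval of −0.44 to 0.25 without batch. The gap junction gene Gja1 had 6 to 48 counts and was not called in either fit (log2 fold change −0.27).

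Of the 9 oligodendrocyte lineage markers tested, 6 fell with batch as a term, Olig1, Olig2, Pdgfra, Cntn1, Cspg4 and Mbp, while the myelin genes Mag and Cnp rose. Without batch, Mag was the 1 gene called. Olig1, a transcription factor of the lineage, was at 9.38, 16.7, 2.61 and 16.7 CPM in vehicle, 6.66, 9.44, 1.72 and 9.53 CPM in full-length and 8.59, 13.9, 1.35 and 11.2 CPM in coiled-coil libraries. Its partner Olig2 was at 4.17, 8.17, 1.12 and 8.21 CPM in vehicle, 2.38, 4.10, 0.335 and 5.55 CPM in full-length and 3.24, 5.52, 0.702 and 6.03 CPM in coiled-coil libraries. For both genes each full-length library was lower than the vehicle library of its batch. The log2 fold changes were −0.70 and −0.88 with batch as a term (adjusted p = 0.00170 and 0.00107 by edgeR; 0.449 and 0.454 without batch).

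Pdgfra, the growth factor receptor that defines oligodendrocyte precursors and is also made by some fibroblasts, was at 3.52, 20.2, 0.482 and 18.2 CPM in vehicle, 1.97, 13.7, 0.377 and 11.6 CPM in full-length and 1.99, 14.1, 0.150 and 13.3 CPM in coiled-coil libraries. Vehicle alone thus ran from 0.482 to 20.2 CPM between batches 3 and 2. With batch as a term Pdgfra fell, with a log2 fold change of −0.64 (adjusted p = 0.00302 by edgeR; 0.725 without). Cntn1, a contactin on axons and precursors, was at 5.17, 15.5, 1.29 and 11.7 CPM in vehicle, 3.19, 8.12, 0.377 and 8.44 CPM in full-length and 3.63, 10.3, 0.702 and 10.9 CPM in coiled-coil libraries. It too fell with batch as a term, with a log2 fold change of −0.81 (SE 0.15) and adjusted p = 0.00171 by edgeR (0.566 without batch). Sox10, a factor of the whole lineage, had 0 to 26 counts and no call.

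Cspg4, the NG2 proteoglycan of oligodendrocyte precursors and pericytes, was at 29.8, 15.2, 14.5 and 16.2 CPM in vehicle, 16.8, 5.30, 5.94 and 7.40 CPM in full-length and 38.9, 13.5, 17.1 and 18.7 CPM in coiled-coil libraries. Unlike Olig1, Olig2 and Pdgfra it was not low in batch 3, and it was highest in batch 1 in each group. The full-length library was the lowest of each batch. The log2 fold change was −1.09 (SE 0.42) without batch (adjusted p = 0.0778 by edgeR) and −1.18 (SE 0.11) with batch as a term (adjusted p = 4.55e-05).

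Mbp, the myelin basic protein gene, which also yields transcripts in immune cells, was at 133, 92.3, 98.6 and 90.6 CPM in vehicle, 87.1, 65.7, 78.5 and 66.0 CPM in full-length and 143, 82.0, 88.8 and 80.0 CPM in coiled-coil libraries. The full-length libraries all lay below the vehicle libraries, with a log2 fold change of −0.48 (SE 0.19). Its adjusted p was 0.0861 without batch and 0.00085 with batch as a term by edgeR.

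Mag (chr7:30899176-30914873), a sialic-acid-binding protein of myelin, went the other way. It was at 7.64, 3.90, 5.82 and 4.37 CPM in vehicle, 9.47, 8.84, 8.20 and 8.44 CPM in full-length and 5.57, 6.63, 6.87 and 7.26 CPM in coiled-coil libraries. Each full-length library exceeded all vehicle libraries and all coiled-coil libraries. Its log2 fold change to vehicle was 0.69 (SE 0.19), with adjusted p = 0.0201 by edgeR, and in the fit without batch it lost the call without vehicle replicate 4 (0.0568), without replicate 2 (0.134) or without replicate 4 (0.141) in all groups.

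Cnp, a nucleotide phosphodiesterase of myelinating cells that myeloid cells also make, was at 86.1, 112, 155 and 85.8 CPM in vehicle, 124, 152, 166 and 155 CPM in full-length and 88.4, 158, 125 and 119 CPM in coiled-coil libraries. It was higher with full-length NfL than with vehicle in each batch, though the groups overlapped. It rose with batch as a term, with a log2 fold change of 0.47 (SE 0.13) and adjusted p = 0.0112 by edgeR, and had an adjusted p of 0.129 without batch. The call was lost without replicate 4 in all groups. Of its exon bases, 4.23% overlap those of Dnajc7 on the opposite strand, a gene with 2602 to 3931 counts, and whether counting used the strand is not given in the sources used here.

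All 8 neuronal markers were tested and had a log2 fold change below 0 with full-length NfL, with a median of −1.20. Rbfox3 and Gad1 fell in the fit without batch, and all 8 fell with batch as a term. Dcx (chrX:143855842-143933311), a microtubule protein of migrating young neurons, was at 28.0, 34.0, 13.3 and 37.4 CPM in vehicle, 18.6, 11.1, 7.28 and 15.5 CPM in full-length and 30.7, 16.7, 11.4 and 27.9 CPM in coiled-coil libraries. The neuronal dendrite protein gene Map2, which glial precursors can also transcribe, was at 23.4, 29.2, 8.44 and 32.7 CPM in vehicle, 15.2, 12.1, 4.73 and 16.0 CPM in full-length and 24.9, 18.6, 7.93 and 24.7 CPM in coiled-coil libraries. In every batch both genes were lowest with full-length NfL. The log2 fold changes were −1.11 (SE 0.16) and −0.95 (SE 0.12) with batch as a term, with adjusted p = 0.000359 and 0.000148 by edgeR (0.0542 and 0.147 without batch).

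Tubb3, the tubulin of neurons, was at 13.0, 14.0, 5.86 and 15.4 CPM in vehicle, 8.22, 4.26, 2.13 and 6.45 CPM in full-length and 11.5, 7.08, 3.66 and 11.2 CPM in coiled-coil libraries. It had the same order, full-length below coiled-coil below vehicle, in all 4 batches. Its log2 fold change was −1.25 (SE 0.16) with batch as a term (adjusted p = 0.00016 by edgeR; 0.0674 without).

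Rbfox3 (chr11:118489762-118911597), which encodes the nuclear protein NeuN of mature neurons, was scarce, with 0 to 17 counts. It was at 0.564, 0.503, 0.321 and 0.735 CPM in vehicle, 0.136, 0.241, 0 and 0.0949 CPM in full-length and 0.382, 0.390, 0.150 and 0.461 CPM in coiled-coil libraries. No full-length library reached the lowest vehicle library. Rbfox3 passed the low-count filter through vehicle and coiled-coil libraries alone, with at most 6 counts in a full-length library. The call and the lack of overlap are thus not independent of that filter. Its log2 fold change was −2.10 (SE 0.59), with adjusted p = 0.0231 by edgeR, and the size rests on few counts. The call was lost without vehicle replicate 4 (0.0707), without full-length replicate 4 (0.0645), or without replicate 1 (0.0855), 2 (0.0656) or 4 (0.185) in all groups.

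Gad1 (chr2:70553072-70602014) and Gad2 make GABA, the transmitter of inhibitory neurons. Gad1 was at 2.91, 2.89, 0.803 and 3.37 CPM in vehicle, 1.49, 0.723, 0.837 and 1.23 CPM in full-length and 1.68, 1.10, 1.15 and 2.03 CPM in coiled-coil libraries. Gad2 was at 1.74, 1.21, 1.04 and 2.59 CPM in vehicle, 1.49, 0.442, 0.251 and 0.854 CPM in full-length and 2.18, 0.780, 0.150 and 1.38 CPM in coiled-coil libraries. Gad1 was lower with full-length NfL in batches 1, 2 and 4 and level in batch 3, and Gad2 was lower in all 4. Gad1 fell without batch, with a log2 fold change of −1.21 (SE 0.41) and adjusted p = 0.0476 by edgeR. It passed with vehicle replicate 3 or full-length replicate 1 left out and lost the call without any 1 of the other 10 libraries, with adjusted p from 0.0564 to 0.132. Gad2 fell with batch as a term (adjusted p = 0.0158; 0.233 without).

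The synaptic vesicle genes were near 1 CPM. Snap25, a fusion protein of synaptic vesicles, was at 2.39, 1.38, 0.603 and 2.38 CPM in vehicle, 1.26, 0.563, 0.460 and 0.474 CPM in full-length and 1.45, 0.650, 0.652 and 0.883 CPM in coiled-coil libraries. Syt1, their calcium sensor, was at 0.521, 1.13, 0.603 and 1.30 CPM in vehicle, 0.611, 0.321, 0.126 and 0.427 CPM in full-length and 1.11, 0.910, 0.251 and 1.08 CPM in coiled-coil libraries. Both fell with batch as a term, with log2 fold changes of −1.25 and −1.26 (adjusted p = 0.00518 and 0.0214 by edgeR; 0.0715 and 0.104 without), and in batch 1 Syt1 was not lower with full-length NfL.

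**Figure D3:**
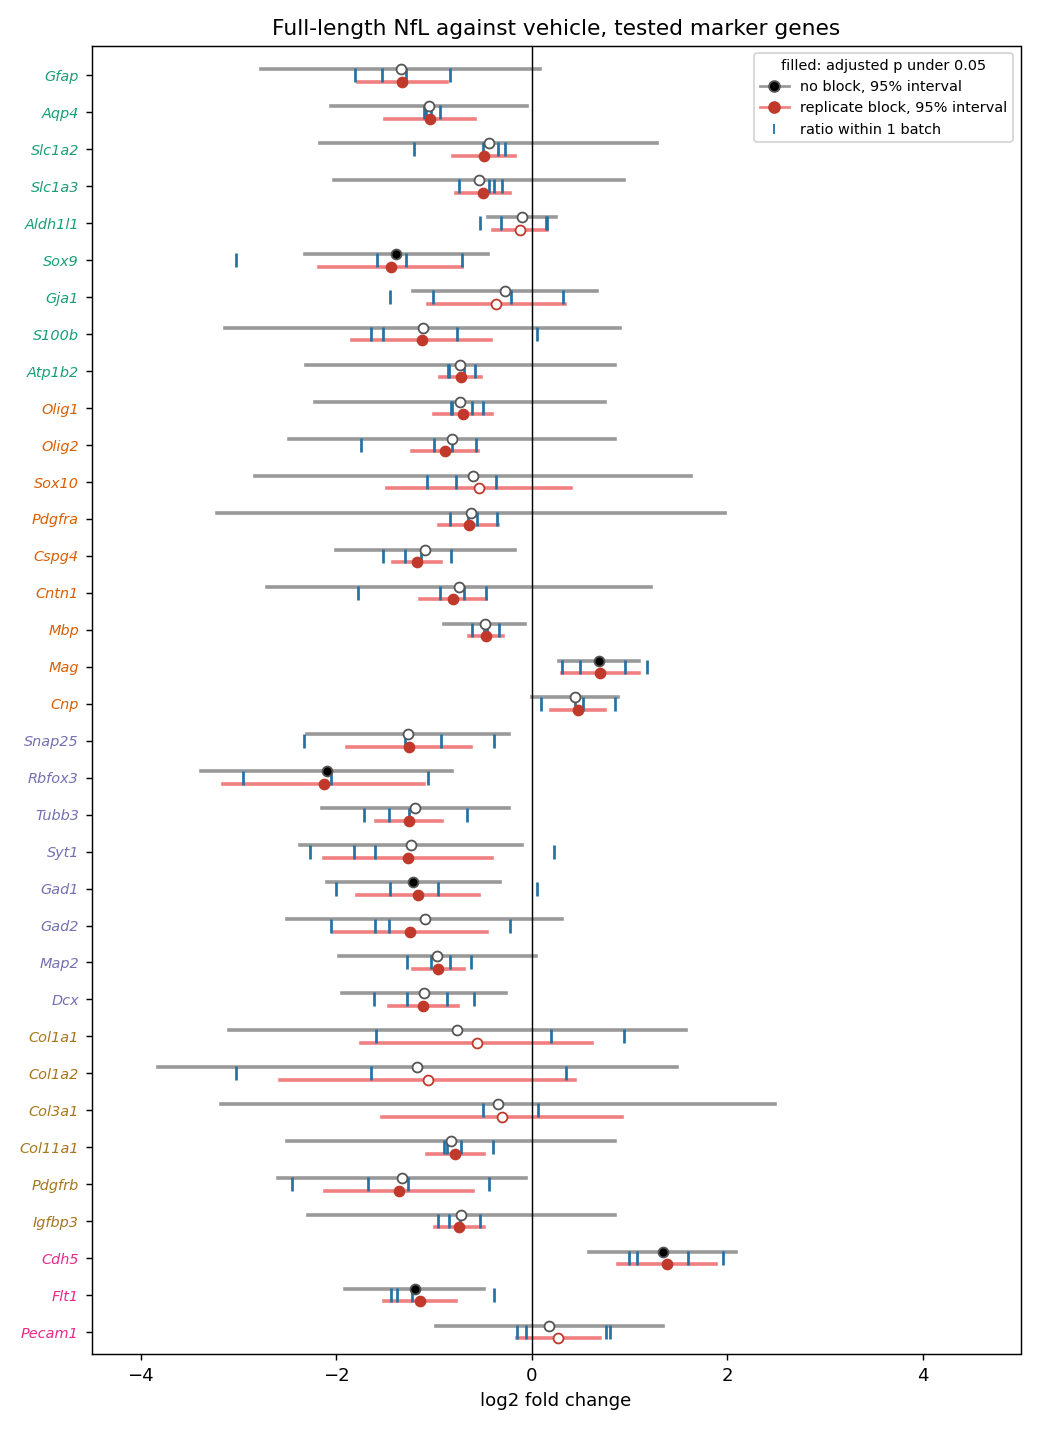
Log2 fold change of the 35 tested markers, full-length NfL against vehicle (x axis), with 95% intervals from the fit without batch (grey) and with batch as a term (red), and the log2 ratio within each batch (blue ticks, left out where a library was at 0). Filled points are called. The red intervals are narrower, and Mag, Cnp, Cdh5 and Pecam1 are the 4 markers right of 0.

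The 8 fibroblast and mural markers did not share 1 pattern over the batches. The fibrillar collagens Col1a1, Col1a2 and Col3a1 had 0 to 47, 0 to 34 and 0 to 25 counts, most of them in batches 1 and 3, and none was called. Col11a1 and Igfbp3 made up most of the summed level of the class and had the low batch 3 of the astrocyte and precursor genes. Col11a1, a minor fibrillar collagen, was at 8.68, 12.4, 1.04 and 15.3 CPM in vehicle, 5.26, 6.63, 0.795 and 8.40 CPM in full-length and 7.44, 7.41, 1.20 and 10.5 CPM in coiled-coil libraries. Igfbp3, which binds insulin-like growth factors, was at 11.1, 22.9, 2.69 and 18.2 CPM in vehicle, 6.66, 12.8, 1.38 and 12.6 CPM in full-length and 9.58, 14.4, 1.96 and 12.7 CPM in coiled-coil libraries. Both were lowest in batch 3 within each group, where the fibrillar collagens were highest in vehicle and with coiled-coil NfL. Both fell with batch as a term, with log2 fold changes of −0.78 (SE 0.13) and −0.74 (SE 0.11) (adjusted p = 0.000929 and 0.000488 by edgeR; 0.451 and 0.484 without).

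Pdgfrb, the receptor that marks pericytes, had 2 to 36 counts, at 1.52, 0.545, 0.803 and 0.519 CPM in vehicle, 0.475, 0.402, 0.335 and 0.0949 CPM in full-length and 1.37, 0.585, 1.05 and 0.230 CPM in coiled-coil libraries. Every full-length library lay below every vehicle library. Its log2 fold change was −1.33 (SE 0.58), with adjusted p = 0.113 without batch and 0.00842 with batch as a term by edgeR.

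The 3 endothelial markers that were tested went different ways with full-length NfL: Cdh5 rose, Flt1 fell and Pecam1 was not called, in both fits, while Cldn5 had no count. Cdh5 (chr8:104101625-104144511), the VE-cadherin of endothelial junctions, was at 0.738, 1.55, 1.53 and 0.864 CPM in vehicle, 2.24, 3.09, 3.22 and 3.37 CPM in full-length and 1.07, 3.12, 1.81 and 1.50 CPM in coiled-coil libraries, from 17 to 96 counts. Each full-length library exceeded all vehicle libraries. The log2 fold change was 1.34 (SE 0.34), with adjusted p = 0.0153 by edgeR. It lost the call without replicate 4 (0.140) in the fit without batch, and with batch as a term it kept the call with each library or batch left out.

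Flt1 (chr5:147561604-147726011), a receptor for vascular endothelial growth factor, was at 30.9, 79.5, 40.4 and 87.4 CPM in vehicle, 23.7, 29.4, 17.3 and 33.6 CPM in full-length and 43.7, 52.1, 28.6 and 51.1 CPM in coiled-coil libraries. In vehicle, batches 2 and 4 were well above batches 1 and 3. With full-length NfL the batches lay closer together and each was below its vehicle library. The log2 fold change was −1.20 (SE 0.33), with adjusted p = 0.0207 by edgeR, and the call was lost without vehicle replicate 2 (0.0649) or 4 (0.0717) or full-length replicate 3 (0.0514), or without replicate 2 (0.129) or 4 (0.114) in all groups. Pecam1, an adhesion molecule of endothelium and leukocytes, was at 6.73, 2.68, 2.17 and 1.25 CPM in vehicle, 6.04, 2.57, 3.68 and 2.18 CPM in full-length and 7.06, 3.51, 4.16 and 1.65 CPM in coiled-coil libraries. Batch 1 was the highest in each group, and the log2 fold change was 0.18 with a 95% interval of −0.97 to 1.34. Without full-length replicate 1 it was −0.18, and without vehicle replicate 4 −0.08.

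Coiled-coil NfL was compared with vehicle in the same libraries and fits. No marker was called in either fit, where 0% of all genes were called in either direction without batch and 0.00681% in each direction with batch as a term. Without batch, no marker had an unadjusted p under 0.05, against 7.37% of all genes. With batch as a term 16 did, against 18.3%, and DESeq2 called none of the markers. Of the 35 tested, 29 had a log2 fold change below 0, against 49.1% of all genes (49.0% with batch as a term), with a median of −0.39 beside 0.00 for all genes, and 11 were lower in each batch, against 12.2%. For no marker did all coiled-coil libraries lie below or above all vehicle libraries, where 1.31% and 1.42% of all genes did so. By class, the median was −0.33 for astrocyte, −0.36 for oligodendrocyte lineage, −0.53 for neuronal, −0.49 for fibroblast and mural and 0.35 for endothelial markers, of which 1 of 3 was below 0. As both NfL groups are set against the same vehicle libraries, their likeness is no independent result.

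Intervals with batch as a term differed in width between markers for this comparison. Tubb3 had a log2 fold change of −0.58 (95% interval −0.91 to −0.25, adjusted p = 0.115 by edgeR) and Pdgfra −0.60 (−0.90 to −0.31, 0.0986). Mbp had −0.09 (−0.27 to 0.08), Aqp4 −0.15 (−0.58 to 0.28) and Cspg4 0.16 (−0.07 to 0.40). Cdh5 was higher than vehicle in all 4 batches, at 0.66 (0.14 to 1.18, 0.183). The sum of the neuronal markers was 73.9, 46.2, 25.4 and 69.6 CPM in batches 1 to 4, against 72.4, 84.4, 31.0 and 95.9 CPM in vehicle, so that batch 1 showed no difference. Leaving out vehicle replicate 1 from the fit with batch as a term gave 4 lower calls, Tubb3, Dcx, Igfbp3 and Flt1, and leaving out coiled-coil replicate 1 gave 1, Igfbp3. How many of all genes were called in these fits was not counted, so the calls have no share to be set beside.

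The forms of NfL were also compared directly. Most markers were lower with full-length than with coiled-coil NfL: 30 of 35 had a log2 fold change below 0, against 52.5% of all genes (52.7% with batch as a term), with a median of −0.38 beside −0.02, and 21 were lower in each batch, against 22.3%. All full-length libraries lay above all coiled-coil libraries for 1 marker, Mag, against 7.46% of all genes, and below them for none, against 5.02%. Without batch no marker was called, against 1.38% of all genes higher and 1.34% lower, and 6 had an unadjusted p under 0.05, against 21.6%. DESeq2 called 1, Cspg4, as lower. With batch as a term 12 fell, beside 10.1% of all genes, and 1 rose, beside 8.99%. Those that fell were Gfap, Aqp4, Slc1a3, Sox9 and Atp1b2 of astrocytes, Cspg4 and Mbp of the oligodendrocyte lineage, Tubb3, Map2 and Dcx of neurons, Pdgfrb of the fibroblast and mural class and Flt1. The gene that rose was Cdh5.

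Cspg4 had the smallest p of these. Its levels, listed above, were 16.8, 5.30, 5.94 and 7.40 CPM with full-length and 38.9, 13.5, 17.1 and 18.7 CPM with coiled-coil NfL, so that every batch showed the difference. The log2 fold change was −1.34 (SE 0.11) with batch as a term (adjusted p = 0.000205 by edgeR) and −1.31 (SE 0.42) without (0.106). Map2 differed by −0.67 (adjusted p = 0.00437) and Mbp by −0.38 (0.00991) with batch as a term. These 3 were the calls that remained in each of the 17 alternatives that left out a library or a batch or summed batches 2 and 4. The count of 12 dropped to 4 without full-length replicate 4, coiled-coil replicate 1 or replicate 4 in all groups, and to 6 without full-length replicate 2 or replicate 3 in all groups. How many of all genes kept their call under the same alternatives was not counted.

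Pdgfra, Slc1a2 and Olig1 were not called between the forms. Pdgfra differed between them by −0.04 on the log2 scale (95% interval −0.34 to 0.26 with batch as a term) and Slc1a2 by −0.09 (−0.41 to 0.23). Olig1 differed by −0.29 (adjusted p = 0.145 by edgeR). Cdh5, at 0.72 (adjusted p = 0.0382), was called in the fit with batch as a term, and the call was lost when any 1 of 6 libraries or batch 1, 3 or 4 was left out or when batches 2 and 4 were summed.

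**Figure D4:**
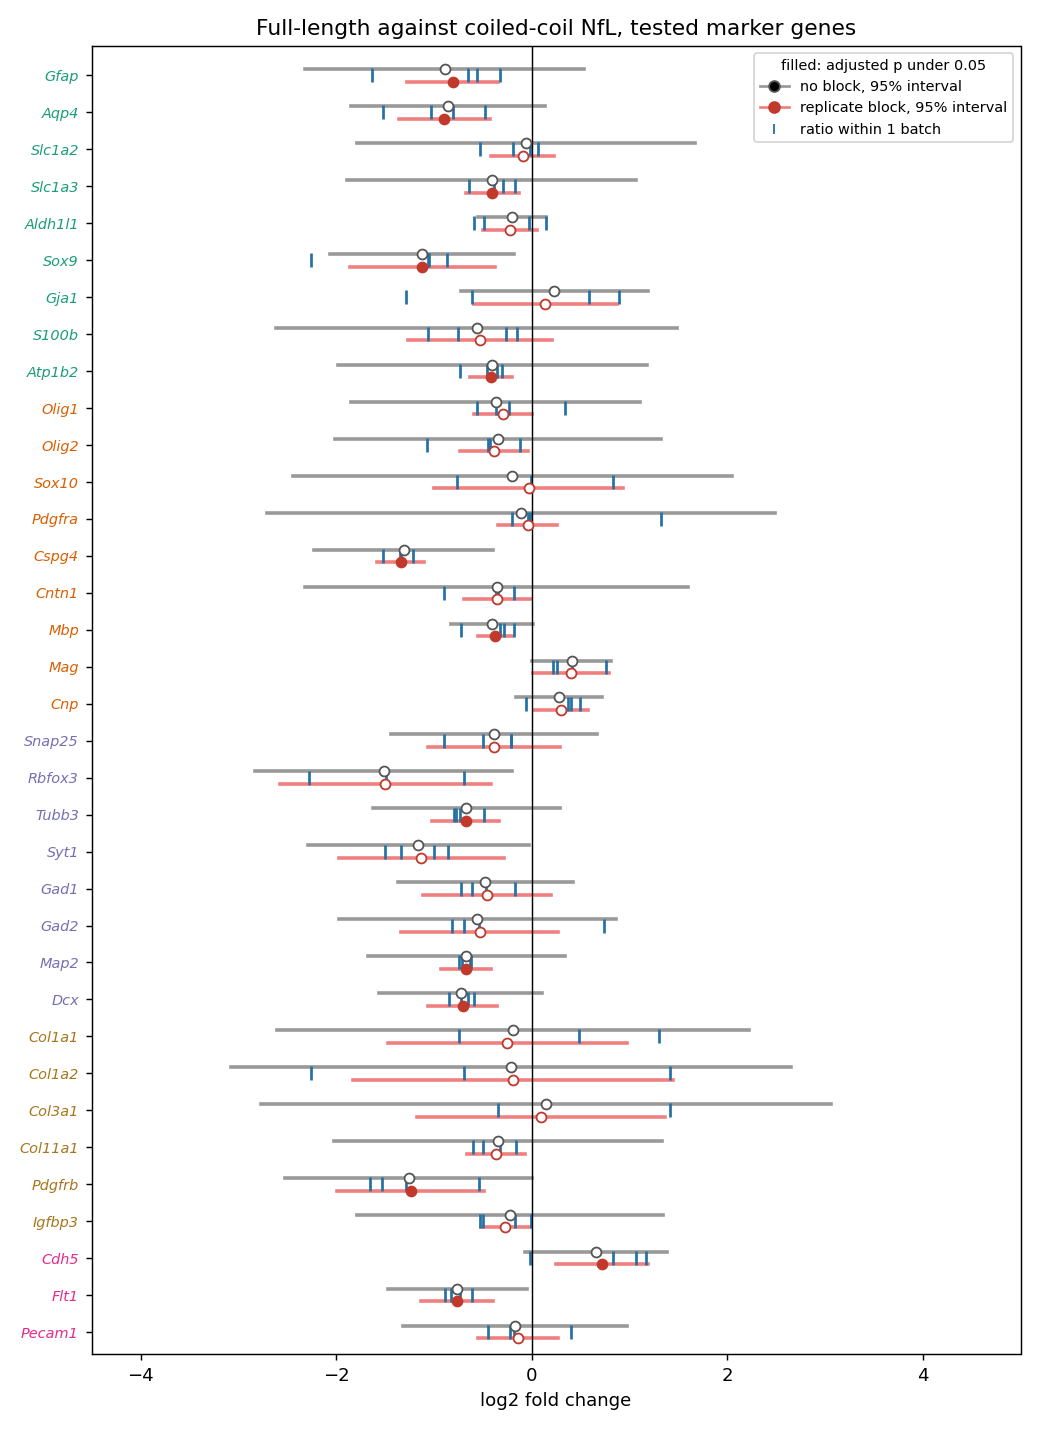
Log2 fold change of the 35 tested markers, full-length against coiled-coil NfL (x axis), with 95% intervals without batch (grey) and with batch as a term (red), and the log2 ratio within each batch (blue ticks). Filled points are called: none of the grey points and 13 of the red, of which Cdh5 alone lies right of 0.

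Further markers of the same classes were counted for full-length NfL against vehicle. None of them was called by edgeR without batch, where 4 neuronal and 2 fibroblast or mural genes had an unadjusted p under 0.05, beside 38.5% of all genes, and none rose with batch as a term. In that fit, where 22.4% of all genes fell, 7 of 11 tested further astrocyte genes fell, among them the radial glial lipid carrier Fabp7 (15.0 CPM in vehicle, 8.62 CPM in full-length libraries) and the matricellular protein gene Sparcl1 (log2 fold change −0.77, SE 0.12). Of 8 further neuronal genes 6 fell, among them the RNA-binding factor Elavl3 (7.28 and 3.77 CPM) and the tubulin regulator Stmn2 (2.06 and 0.970). Of 9 further oligodendrocyte lineage genes 1 fell, a share below that of all genes, the tenascin Tnr (29.4 and 16.5 CPM). Of 13 further fibroblast and mural genes 5 fell, among them fibronectin, Fn1, which macrophages also make (608 and 220 CPM), and Sparc (12.6 and 7.21). In that list the mural genes Rgs5, Kcnj8, Abcc9, Vtn and Myh11 stayed at or below 0.267 CPM in every library. The mural genes Acta2 and Notch3 were among the 5 that fell. Of 12 further endothelial genes listed, only 3 had enough counts to be tested, and 3 had no count in any library. Those not tested stayed at or below 0.281 CPM in every library. Of the 3 tested, 1 fell, the clotting factor carrier Vwf (6.88 and 3.31 CPM). With coiled-coil NfL against vehicle no gene of these 5 lists was called in either fit. Between the forms of NfL, 10.1% of all genes were lower with full-length NfL with batch as a term. In that fit 1 of 11 astrocyte genes (Sparcl1) and 1 of 9 oligodendrocyte lineage genes (Tnr) were lower, shares close to that of all genes. So were 2 of 8 neuronal genes (Elavl3 and Stmn2) and 3 of 13 fibroblast and mural genes, Fn1 and Sparc among them.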

How the data were processed

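The authors deposited raw read counts per gene from stranded poly(A) RNA libraries with 50-base single reads, per the labels' protocols; reads were aligned with GSNAP to GRCm38, per the submitters' processing notes. The sources used here do not give the aligner's version, the counting tool, its strand setting or its annotation. The gene identifiers were named with GENCODE M21 (99.6% matched).

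Counts were tested with edgeR 4.0.16 (R 4.3.3): filterByExpr kept 14687 genes holding 99.9% of counts, TMM factors were computed, and a quasi-likelihood model was fitted to all 12 libraries (9 residual degrees of freedom), with Benjamini-Hochberg adjustment over all genes tested and a threshold of 0.05. Standard errors were derived from the F statistic. A second fit had batch as a term (6 residual degrees of freedom). The labels' batch is the replicate number. Deviations from the group mean correlated between libraries of the same number at 0.31 to 0.73 in 12 of 12 pairs, and between libraries of different number and group at −0.46 to 0.44, so the numbers pair the libraries. Within each group, libraries of batches 2 and 4 differed by a chi-square of 9.22 to 11.1 per gene and other pairs by 21.3 to 104, where sampling noise alone gives 1; they were kept as separate libraries. Total counts set the precision: a gene with 3 counts is at 0.0966 to 0.149 CPM.

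The 39 markers and the further lists were chosen with earlier results of these data known. Markers that averaged 1 CPM or more, or that were called in any comparison, are given in every library, and the others by their range of counts. Genes of the further lists are named where called, at most the 2 with the smallest p in each list and comparison. Some mural genes are named besides. Exons of 7 markers overlap those of another gene. Alternatives were DESeq2 1.42.0, other scalings and filters, fits to 2 groups, libraries or batches left out and batches 2 and 4 summed. The edgeR step was tested on simulated data.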

Additional observations from a re-analysis of the deposited data

Results flagged for a closer look

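Of 90 sets of 4 libraries examined, 3 held a library far from the others by Dixon's criterion, and chance alone picks out about 1 set in 20. Cspg4 in vehicle was at 29.78 CPM in replicate 1, whereas the other vehicle libraries were at 14.54, 15.2 and 16.17 CPM. Snap25 with full-length NfL was at 1.256 CPM in replicate 1 and at 0.4604 to 0.5626 CPM in the others. Mbp with coiled-coil NfL was at 143.3 CPM in replicate 1 and at 80.01 to 88.83 CPM in the others. All 3 libraries belong to batch 1.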

How the results depend on the processing

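The number of markers lower with full-length NfL than with vehicle depended most on whether batch was in the model. It was 4 without the replicate block and 25 with it. Without the block it was 8 with DESeq2, 2 with no filter on low counts, 2 with a filter of at least 1 CPM in 4 libraries, and 0 with batches 2 and 4 summed. With 1 library or 1 batch left out it ran from 0 (without vehicle replicate 4, without replicate 2 or without replicate 4) to 12 (without replicate 3). Calls over all genes moved too. Lower calls numbered 1594 of 14687 genes tested without the block, 1970 of 14687 with DESeq2 and 424 of 14767 with batches 2 and 4 summed. They were 1191 of 26839 with no filter and 1631 of 12821 with the 1 CPM filter. They were 998 of 14903 without vehicle replicate 4 and 490 of 14667 without replicate 2. Without replicate 4 in all groups they were 255 of 14754, and without replicate 3 they were 1956 of 14822. The number of markers higher was 2, ran from 0 to 3 over the left-out libraries and batches, and was 0 with batches 2 and 4 summed. All genes called higher numbered 2062 without the block and 616 with batches 2 and 4 summed. With the block, the number of markers lower ran from 19 to 26 when a library or batch was left out, and the number higher from 2 to 3. With the block, 21 were lower with batches 2 and 4 summed. How many of all genes were called in these alternatives to the block fit was not counted, in any comparison.

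Between full-length and coiled-coil NfL, 0 markers were lower without the replicate block, 1 with DESeq2 and 12 with the block. Leaving out a library or batch gave 0 to 1 without the block and 4 to 13 with it, and 9 remained with the block when batches 2 and 4 were summed. Of all genes, 197 were lower without the block, 619 with DESeq2 and 1485 with the block. Without the block, 0 to 277 of all genes were lower with a library or batch left out. The number of markers higher was 1 with the block, 0 to 2 with a library or batch left out, and 0 with batches 2 and 4 summed. With coiled-coil NfL against vehicle the block fit gave 0 markers lower, and 0 to 4 with a library or batch left out. The pairing changed the calls named above, and it changed none for coiled-coil NfL against vehicle.

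With a library or batch left out, the log2 fold change with full-length NfL against vehicle turned for 6 of the 35 markers tested without the block and for 4 with it, and none of them had been called. Without vehicle replicate 3, markers below 0 numbered 28 in place of 31, as Col1a1, Col1a2 and Col3a1 turned to 0.61, 0.13 and 0.97. Col3a1 also turned without full-length replicate 2 or 4, Gja1 without full-length replicate 4 and Col1a1 without replicate 3. With the block, Aldh1l1 and the same 3 collagens turned. Aldh1l1 without the block ran from −0.23 to 0.035 on the log2 scale, at 0.035 without full-length replicate 2 and 0.020 without replicate 2. Pecam1 ran from −0.18 to 0.84, at −0.18 without full-length replicate 1 and −0.08 without vehicle replicate 4. The cause was not tested. Of the other alternative values for the 30 markers given in every library, 612 kept direction and side of the threshold, 53 passed it and 44 lost it. Markers under about 1 CPM rest on few counts, and differences in them were often not detectable at this depth.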

Other observations

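Genes of the ependyma and choroid plexus, the tissue that makes cerebrospinal fluid, had a high summed level only in vehicle replicate 3 and full-length replicate 1. Ttr, the choroid plexus carrier of thyroid hormone, was at 0, 1.17, 44.1 and 0.0432 CPM in the vehicle libraries of batches 1 to 4, at 62.0, 0, 0 and 0 with full-length NfL and at 1.72, 0, 1.20 and 0 with coiled-coil NfL. It was chosen after its values were seen. The summed level of the 8 genes listed was 64.9 CPM in full-length replicate 1, 46.2 CPM in vehicle replicate 3 and 0.126 to 2.41 CPM in the other libraries. The 2 of these genes that were tested were not called in any comparison.

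Genes of macrophages at the borders of the brain went different ways with full-length NfL. Of 7 tested, 2 rose and 3 fell with batch as a term, and 1 rose and 2 fell without, beside 21.4% and 22.4% of all genes with batch and 14.0% and 10.9% without. F13a1, a clotting factor subunit, was at 35.0 CPM in vehicle and 4.16 CPM with full-length NfL, with a log2 fold change of −3.05 (SE 0.61) and adjusted p = 0.00483 by edgeR without batch. Siglec1, a sialic-acid receptor, was at 743 and 2088 CPM, with 1.49 (SE 0.33) and 0.00798. The mannose receptor gene Mrc1 was at 805 and 421 CPM, with −0.94 (SE 0.31) and 0.0457. Of 13 genes of lymphocytes and granulocytes, 7 had no count in any library, and the summed level was 0.0804 to 1.43 CPM.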
